A study of Mus musculus with 9 samples.

Results

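Transcripts of the chemokines and of their receptors were followed across 3 layers of the newborn mouse bladder. The members were every gene whose symbol in the array annotation is Ccl, Cxcl, Cx3cl, Ccr, Cxcr, Cx3cr or Ackr followed by a number, with all of their probe sets. This rule, which used no measured value, gave 50 genes on 82 probe sets, of 18193 genes with a probe set of their own and 45101 probe sets in all. The 50 genes were 31 ligands, 15 signalling receptors and 4 atypical receptors. The layers were the detrusor (the smooth muscle coat of the bladder), the stroma (the connective tissue) and the urothelium (the lining epithelium), cut out of frozen sections with a laser. Each layer had 3 Affymetrix MOE430 arrays, 1 per captured sample. Every mouse was of strain FVB/N and carried the SMGA/EGFP transgene, a fluorescent reporter named for smooth muscle gamma actin, so no array came from mice without it. Detrusor had 2 arrays from postnatal day 1 and 1 from day 2, while stroma and urothelium each had 1 from day 1 and 2 from day 2. No treatment was given, sex is recorded as unknown, samples were not pooled, and the RNA went through 2 rounds of amplification before labelling. The labels do not tie samples to animals, so the p-values reflect nothing beyond the variation among these 9 samples, part of which may be technical, and layers may share animals.

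Chemokines are small secreted proteins that bind to proteoglycans on cell surfaces and guide migrating cells through receptors coupled to G proteins. Most are named by the spacing of conserved cysteines, as CC, CXC or CX3C ligands, and a ligand can serve several receptors. Atypical receptors bind chemokines without classical G protein signalling and take them up or transport them. Cxcl12 is a CXC ligand made by many mesenchymal and vascular cells. Its signalling receptor is Cxcr4, and Ackr3 is the atypical receptor that binds and removes it. In the bladder wall, resident macrophages and other leukocytes are among the cells that respond to chemokines, and epithelium, fibroblasts, endothelium and macrophages can all make them.

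The promoters of 3 members to which the results return, Cxcl12, Ackr3 and Cxcl1, show how unlike the upstream sequences of the family are. Each is the 250 bases before the annotated start in RefSeq (GRCm38.p6), on the plus strand, at chr6:117168285-117168534 for Cxcl12, chr1:90203730-90203979 for Ackr3 and chr5:90890995-90891244 for Cxcl1. Capitals mark matches, on either strand, to a GC box (GGGCGG, or CCGCCC read from the other strand), a kappa B-like motif (GGGA, any 2 bases, TTCC) or a TATA box (TATAAA).
Cxcl12: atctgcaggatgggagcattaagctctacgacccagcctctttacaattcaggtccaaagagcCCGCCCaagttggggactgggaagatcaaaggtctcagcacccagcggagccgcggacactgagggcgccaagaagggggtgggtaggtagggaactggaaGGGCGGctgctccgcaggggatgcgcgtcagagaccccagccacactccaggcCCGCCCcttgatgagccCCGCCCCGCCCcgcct
Ackr3: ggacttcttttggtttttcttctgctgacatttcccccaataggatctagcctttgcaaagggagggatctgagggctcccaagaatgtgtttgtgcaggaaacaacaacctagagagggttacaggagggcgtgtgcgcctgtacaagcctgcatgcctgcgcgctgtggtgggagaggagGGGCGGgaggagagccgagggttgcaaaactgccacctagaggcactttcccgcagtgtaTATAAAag
Cxcl1: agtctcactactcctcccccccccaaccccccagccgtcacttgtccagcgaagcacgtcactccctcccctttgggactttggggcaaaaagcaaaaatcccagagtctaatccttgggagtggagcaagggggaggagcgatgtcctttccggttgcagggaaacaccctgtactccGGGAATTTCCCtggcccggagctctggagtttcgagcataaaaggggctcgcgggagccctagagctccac
Cxcl12 held 5 GC boxes and no match to the other motifs. Ackr3 held 1 GC box and 1 TATA box, the latter beginning 8 bases before the start. In Cxcl1 the capitals are 1 stretch that reads as 2 overlapping kappa B-like matches, 71 and 70 bases before the start. RefSeq promoters were matched for 37 of the 50 members, with 39 entries, and no match to one motif overlapped a match to another in the 3 printed here. A kappa B-like match stood in 6 of the 39 (15.4%), those of Ccl1, Ccr3, Cxcl1, Cxcl10, Cxcl2 and Cxcl3, against 1.21% of all 32851 promoters. A TATA box stood in 30.8% of the members' promoters against 12.4% of all, and a GC box in 15.4% against 32.7%. The motifs were picked after their matches had been seen, and a match describes letters, not a bound site. In RefSeq's gene order 22 members lie beside another member, in 6 runs. One run is Ccl2, Ccl7, Ccl11, Ccl12, Ccl8 and Ccl1, another is Ccl5, Ccl9, Ccl6, Ccl3 and Ccl4, and a further one is Cxcl3, Cxcl15, Cxcl1 and Cxcl2.

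Values are array intensities on a linear scale, and differences are on the scale of log2(intensity + 39.31), which understates the change of dim genes. The median probe set of an array ranged from 133.3 intensity units in urothelium 2 to 388.5 in stroma 3, and array numbers only name the samples. The summed markers of each layer were highest in the layer of that label, though not every single marker was, and 2 arrays stood apart. Urothelial markers (8 genes, among them the uroplakins) summed to between 172275 and 239573 in urothelium and between 2262 and 3136 in detrusor. In stroma 3 they summed to 160718, against 35283 in stroma 1 and 14690 in stroma 2. Smooth muscle markers summed to 261661 in urothelium 3, against 27925 and 19733 in the other urothelium arrays and between 280149 and 384155 in detrusor. Results for the leading gene are therefore given with and without stroma 3 and urothelium 3. A gene was tested when one of its probe sets was as bright as the array median in 3 or more arrays, and the brightest such probe set stood for it. Of the 50 members, 23 passed: 16 of 31 ligands, 3 of 15 signalling receptors (Ccr6, Cx3cr1 and Cxcr3) and 4 of 4 atypical receptors. The table has no detection calls, so a dim member cannot be called absent.

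**Figure D1:**
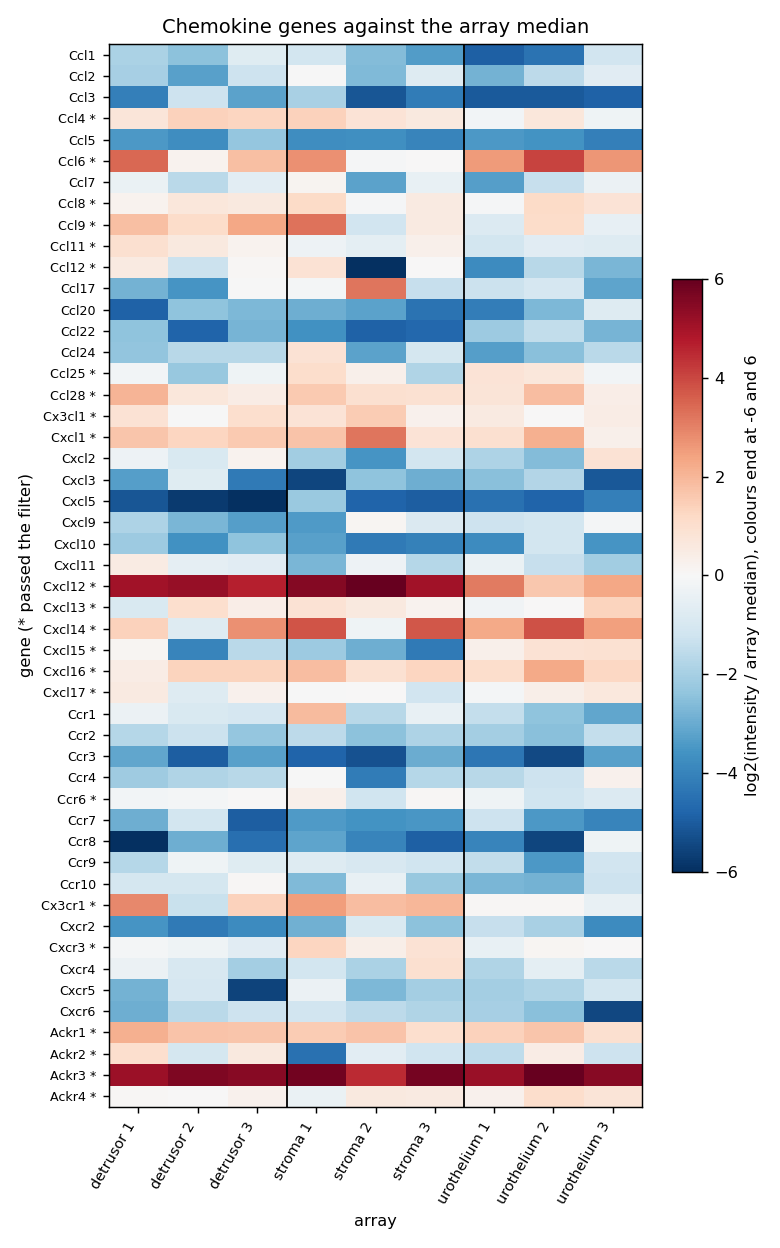
Intensity of all 50 chemokine and chemokine receptor genes (rows, with an asterisk on the 23 that passed the filter) on each of the 9 arrays (columns), as log2 of the ratio to that array's median probe set, red above it and blue below. Cxcl12 and Ackr3 are red on every array, with Cxcl12 palest in urothelium; colours are to be compared along a row, since probe sets differ in brightness.

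Of the 23 tested members, Cxcl12 had the largest difference between urothelium and either other layer. Its brightest probe set, 1448823_at, read 11546, 14589 and 12768 intensity units in stroma 1, 2 and 3. The detrusor arrays read 6908, 7756 and 4886, and the urothelium arrays 2262, 408 and 1179. No array of 1 layer overlapped with another layer: every stroma array was above every detrusor array, and every detrusor array above every urothelium array. On the log2 scale the means were 13.66 ± 0.17 in stroma, 12.65 ± 0.34 in detrusor and 10.07 ± 1.19 in urothelium (SD, n = 3 each). Cxcl12 was 12.0-fold lower in urothelium than in stroma (log2 difference -3.59 ± 0.50 SE, adjusted p = 0.0305) and 5.97-fold lower in urothelium than in detrusor (-2.58 ± 0.50, adjusted p = 0.00617). The difference between detrusor and stroma was -1.01 ± 0.50 with an adjusted p of 0.261 and a 95% interval of -2.12 to 0.10, and did not pass. Without stroma 3 and urothelium 3 the differences were -3.68 ± 0.67 from stroma (adjusted p = 0.0267) and -2.67 ± 0.61 from detrusor (adjusted p = 0.0193). The call against stroma was lost on leaving out stroma 1 (adjusted p = 0.102), detrusor 1 (0.0817), urothelium 2 (0.0807, with the difference at -2.95) or detrusor 3 (0.066), and over the single arrays left out the difference lay between -4.13 and -2.95.

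**Figure D2:**
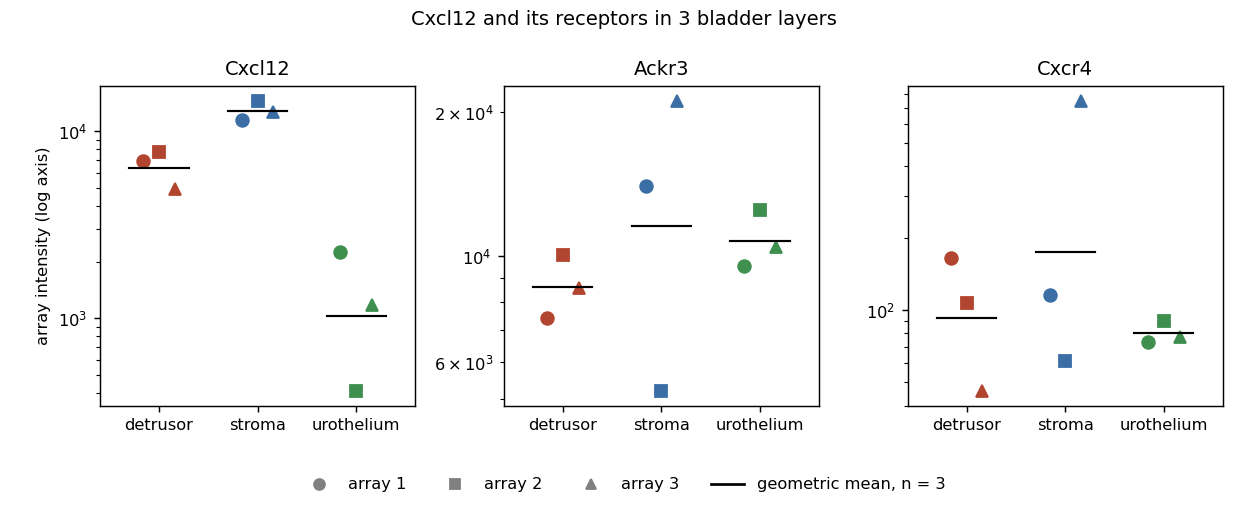
Intensity of Cxcl12 and of its receptors Ackr3 and Cxcr4 on each of the 9 arrays, grouped by layer, on log axes that are scaled separately for each gene (points are arrays, bars geometric means, n = 3). The 3 layers do not overlap for Cxcl12, overlap for Ackr3, and for Cxcr4 the stroma 3 array stands above all others at 749 units.

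A second probe set of Cxcl12, 1417574_at, also passed and read 3456, 3782 and 3054 units in stroma. It read 1878, 1119 and 906 in detrusor and 2579, 225 and 520 in urothelium. Here too all stroma arrays were above all others, but urothelium 1 was above the 3 detrusor arrays. Tested among all probe sets, its difference was -2.25 ± 0.67 from stroma to urothelium (adjusted p = 0.20) and -0.81 ± 0.67 from detrusor to urothelium (adjusted p = 0.673). Averaging both probe sets gave -1.70 ± 0.57 for urothelium against detrusor and ended that call (adjusted p = 0.0687). The remaining probe set, 1439084_at, reached the array median on 1 array only and had differences of the opposite sign from stroma, 1.12 ± 0.58 in urothelium and 1.25 ± 0.58 in detrusor.

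**Figure D3:**
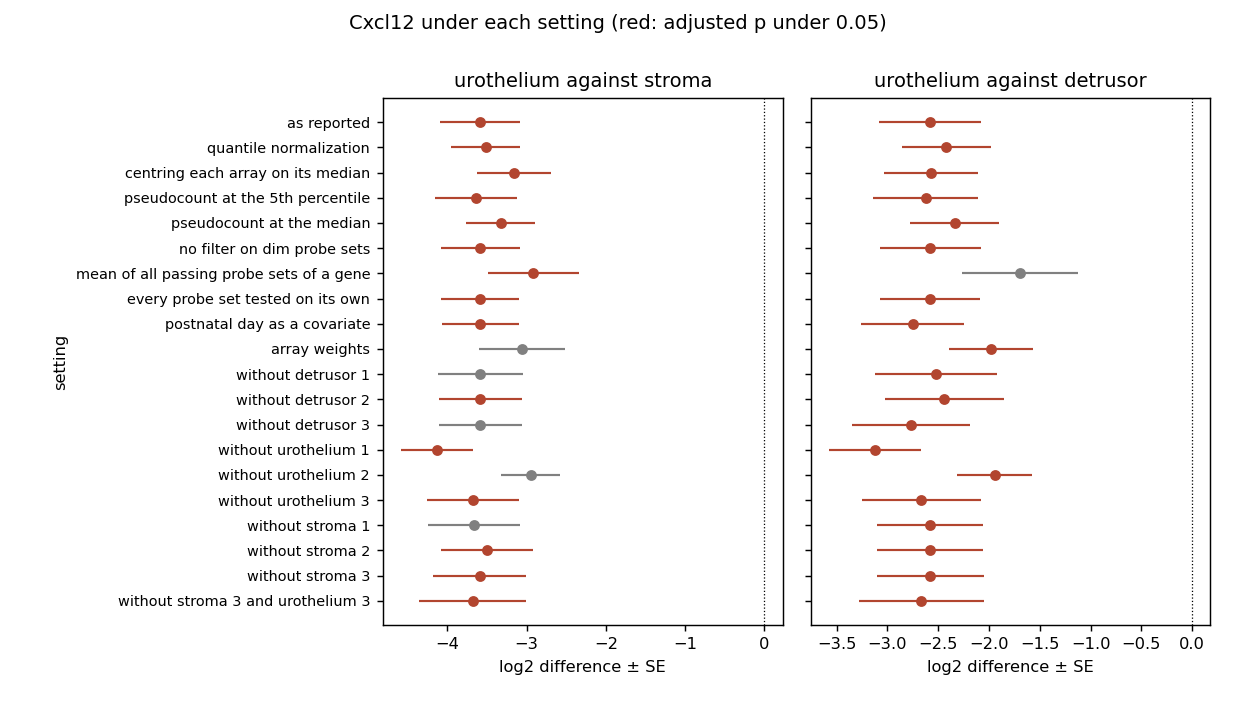
Log2 difference of Cxcl12 between layers under each processing alternative, with its SE, in red where adjusted p is under 0.05. Urothelium against stroma lies between -4.13 and -2.92, and urothelium against detrusor between -3.12 and -1.70.

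Summed fibroblast and stromal marker genes had the same order of layers as Cxcl12, but not the same order of arrays within each layer. The 8 of them summed to between 368594 and 549990 units in stroma, between 267583 and 337302 in detrusor and between 122539 and 246630 in urothelium, and none was at 0. Among the stroma arrays their sum was lowest in stroma 2, where Cxcl12 was highest. The sum leans on the brightest markers, such as Col3a1 (189884, 124194 and 177978 units in stroma 1, 2 and 3). Single markers differed: 5 of the 8 were lowest in stroma 2, but Pdgfra was highest there (21474, 35035 and 15494). In urothelium the sum was highest in urothelium 3 and Cxcl12 in urothelium 1, while in detrusor both were highest in detrusor 2. Of the 8, limma called 3 lower in urothelium than in stroma (Dcn, Vim and Twist2), where 0.23% of all genes were called in either direction. It called 4 lower in urothelium than in detrusor, beside 8.05% of all genes. Lum went the other way from Cxcl12 between detrusor and stroma, at 0.34 ± 0.47 (adjusted p = 0.700). Endothelial markers summed to between 13371 and 29153 in stroma, 6245 and 18842 in detrusor and 3037 and 9623 in urothelium. Limma called 0 of the 6 tested in either comparison with urothelium, beside 0.23% of all genes against stroma and 16.4% against detrusor. At unadjusted p under 0.05 there were 3 against stroma (19% of all genes) and 0 against detrusor (29.5%). The part of these cell types in the Cxcl12 result was not tested, and in bulk samples such as these, fewer cells of a type and less RNA per cell cannot be told apart.

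The atypical receptor Ackr3 was bright in every layer. It read 7396, 10029 and 8575 units in detrusor, 14016, 5203 and 21120 in stroma and 9507, 12456 and 10404 in urothelium. The stroma arrays held both the highest and the lowest value, and all layers overlapped. Its difference was -0.11 between urothelium and stroma (95% interval -1.07 to 0.85, adjusted p = 0.929), 0.32 between urothelium and detrusor (-0.64 to 1.28, adjusted p = 0.692) and -0.42 between detrusor and stroma (-1.38 to 0.53, adjusted p = 0.597). Neither sign against stroma was stable: the difference of urothelium was 0.31 with arrays centred on their medians, 0.33 without stroma 3 and 0.03 without stroma 1, and that of detrusor was 0.01 without stroma 3. Cxcr4, the signalling receptor of Cxcl12, did not pass the filter. It read 165, 107 and 46.0 units in detrusor, 116, 61.6 and 749 in stroma and 73.5, 90.1 and 77.1 in urothelium. Apart from stroma 3 its arrays overlapped in a narrow, dim range. Its differences among all probe sets were -0.95 ± 0.72 for urothelium against stroma (adjusted p = 0.607) and -0.19 ± 0.72 for urothelium against detrusor (adjusted p = 0.958).

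The other atypical receptors differed by less than the test could call. Ackr1, which moves chemokines across venules, read between 611 and 935 in detrusor, 717 and 773 in stroma and 424 and 666 in urothelium. The urothelium arrays were all below the stroma arrays, at a difference of -0.54 ± 0.37 (adjusted p = 0.469). Ackr2, a scavenger of inflammatory CC ligands, had the largest positive difference among the members whose values are not given array by array between detrusor and stroma (1.13 ± 0.70, adjusted p = 0.368). Ackr2 reached the array median on 3 arrays, detrusor 1 and 3 and urothelium 2, so it needed its detrusor arrays to pass. In stroma 1 it read 11.5 units, below the pseudocount of 39.31. Ackr4, a scavenger of homeostatic chemokines such as the ligands of Ccr7, differed by 0.49 ± 0.47 between urothelium and detrusor (adjusted p = 0.545).

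Among the other CXC ligands, Cxcl15, known from lung epithelium, was the one whose urothelium arrays lay highest. It read 318, 246 and 447 units in urothelium, 56.3, 30.5 and 20.4 in stroma and 229, 13.3 and 62.3 in detrusor. All urothelium arrays were above all others. Cxcl15 reached the array median on 4 arrays, the urothelium arrays and detrusor 1. It thus entered the test through the layer where it was high. The difference was 2.32 ± 0.66 against stroma (95% interval 0.86 to 3.78, adjusted p = 0.0964) and 1.70 ± 0.66 against detrusor (0.25 to 3.16, adjusted p = 0.111), and neither passed. On a dimmer probe set of Cxcl15 that did not pass the filter, urothelium overlapped with stroma (0.77 ± 0.57) and with detrusor (0.43 ± 0.57). Cxcl1, a neutrophil attractant that acts on Cxcr2, read 829, 2152 and 678 in stroma, 672, 498 and 564 in detrusor and 503, 592 and 293 in urothelium. The stroma arrays were above the rest, stroma 2 by far the most, but stroma 3 was barely above detrusor 1 (678 against 672). The other passing probe sets of Cxcl1 were also highest in stroma 2, at 1729 and 2252 units, but on both of them stroma overlapped with detrusor and with urothelium. With the brightest probe set the difference of Cxcl1 for urothelium against stroma was -1.19 ± 0.49 (adjusted p = 0.213). Averaging the passing probe sets made it -0.62 ± 0.78 (adjusted p = 0.728).

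Cxcl14, a ligand made by many epithelia and fibroblasts, had the widest spread within a layer of the tested members, with an SD of 2.45 on the log2 scale in stroma. It read 3445, 192 and 5210 units in stroma, 562, 122 and 1270 in detrusor and 1256, 1870 and 1314 in urothelium. Stroma 2 stood far below the other stroma arrays, and urothelium was the most even layer. The difference of detrusor from stroma was -1.69 ± 1.06 (adjusted p = 0.375). Leaving out stroma 2 made it -3.09 ± 0.73 and the one member called in that comparison (adjusted p = 0.0351). Cxcl16, a membrane-bound ligand of Cxcr6, differed by -0.74 ± 0.43 between detrusor and stroma (adjusted p = 0.333), and Cxcl13, the ligand that draws B cells through Cxcr5, by -0.74 ± 0.59 (adjusted p = 0.488), while the other passing probe set of Cxcl13 gave 0.71 ± 0.98. Cxcl17, a mucosal ligand, differed by 0.15 ± 0.50 between urothelium and stroma (adjusted p = 0.913), and by -0.10 without urothelium 3.

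Of the 17 CC ligands 8 passed, and among these the urothelium arrays lay below all others for Ccl4 and Ccl11 only. Ccl4, a ligand made by activated leukocytes, read 229, 214 and 194 units in urothelium, 356, 543 and 470 in detrusor and 669, 416 and 584 in stroma. Every urothelium array was below every other array, with a difference of -1.22 ± 0.40 from stroma (adjusted p = 0.136) and -0.96 ± 0.40 from detrusor (adjusted p = 0.137). Ccl11, the eosinophil attractant eotaxin, read 122, 82.9 and 139 in urothelium, 419, 315 and 221 in detrusor and 204, 155 and 477 in stroma. The urothelium was again below every other array, and the difference from detrusor was -1.19 ± 0.52 (adjusted p = 0.156). Ccl11 reached the array median on 4 arrays, those of detrusor and stroma 3, so it needed its detrusor arrays to pass.

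Ccl9 and Ccl12 showed the same order in urothelium and detrusor but a wide stroma. Ccl9, a ligand of Ccr1, read 145, 285 and 166 units in urothelium, 752, 445 and 961 in detrusor and 2381, 105 and 562 in stroma. Ccl12, a monocyte attractant acting on Ccr2, read 18.7, 42.2 and 35.0 in urothelium, 307, 84.2 and 203 in detrusor and 466, 2.37 and 397 in stroma. For both genes the urothelium arrays were below the detrusor arrays, while stroma 2 was below all of the urothelium arrays. The urothelium values of Ccl12 lay near the pseudocount of 39.31. Ccl12 reached the array median on 4 arrays, detrusor 1 and 3 and stroma 1 and 3, so it needed its detrusor arrays to pass. A dimmer probe set of Ccl9 that did not pass overlapped between urothelium and detrusor (-0.30 ± 0.50). The differences of urothelium from detrusor were -1.66 ± 0.83 for Ccl9 (adjusted p = 0.217) and -1.63 ± 0.90 for Ccl12 (adjusted p = 0.264). Both were called with array weights, which give less weight to arrays far from their group, at -2.00 (adjusted p = 0.0177) and -1.97 (adjusted p = 0.0322).

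Ccl25, the thymic and gut ligand of Ccr9, ran the other way: it read 452, 213 and 211 units in urothelium, 188, 43.1 and 163 in detrusor and 532, 283 and 111 in stroma. The urothelium arrays were above the detrusor arrays and overlapped with stroma. Ccl25 reached the array median on 4 arrays, stroma 1 and 2 and urothelium 1 and 2, so it needed its urothelium arrays to pass. The difference from detrusor was 1.01 ± 0.64 with an adjusted p of 0.330, and a dimmer probe set of Ccl25 that did not pass had the opposite sign (-0.98 ± 0.62). Ccl6, made by myeloid cells, read 1520, 2181 and 1479 units in urothelium, 2309, 237 and 665 in detrusor and 1715, 221 and 400 in stroma. It had the largest positive difference of the remaining members between urothelium and stroma (1.57 ± 0.81, adjusted p = 0.324), with urothelium more even than the other layers. Its other passing probe set had the opposite sign there (-0.58 ± 0.69). Ccl8, a monocyte attractant, and Ccl28, a ligand of mucosal epithelia, had overlapping arrays in all comparisons.

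Among the signalling receptors, Cx3cr1, carried by monocytes and resident macrophages, differed most. It read 1440, 828 and 1551 units in stroma, 1566, 81.2 and 505 in detrusor and 270, 138 and 173 in urothelium. All urothelium arrays were below all stroma arrays, and the detrusor arrays spanned both layers. The difference of urothelium from stroma was -2.48 ± 0.78 (95% interval -4.20 to -0.77, adjusted p = 0.121). Leaving out detrusor 2 gave a called difference of -2.04 ± 0.57 for urothelium against detrusor (adjusted p = 0.0497), where all arrays gave -1.06 ± 0.78 (adjusted p = 0.410). Its ligand Cx3cl1, a membrane-bound chemokine, read between 453 and 661 in stroma and between 136 and 377 in urothelium without overlap, at -0.91 ± 0.48 (adjusted p = 0.340). The dimmer probe sets of Cx3cl1, which did not pass, overlapped between these layers (0.01, -0.01 and -0.40). Cxcr3, the receptor of interferon-induced CXC ligands, read 627, 298 and 704 in stroma, 198, 173 and 120 in detrusor and 188, 142 and 242 in urothelium. The stroma arrays were above all others. Cxcr3 reached the array median on 5 arrays, those of stroma and urothelium 2 and 3, so it needed its high layer to pass. Its difference was -1.46 ± 0.48 for detrusor against stroma (adjusted p = 0.104) and -1.28 ± 0.48 for urothelium against stroma (adjusted p = 0.181). Ccr6, the receptor of Ccl20, read between 58.2 and 413 units over all arrays, and all layers overlapped.

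Counted over the 23 tested members, limma called 0 between detrusor and stroma (1 at unadjusted p under 0.05, Cxcr3), where 5.84% of all 13064 genes were called and 22.9% lay under the unadjusted level. It called 1 between urothelium and stroma, Cxcl12, beside 0.23% of all genes, and 1 between urothelium and detrusor, again Cxcl12, beside 16.4%. At unadjusted p under 0.05 these numbers were 6 for urothelium against stroma (19% of all genes) and 4 for urothelium against detrusor (29.5%). Arrays did not overlap for 4 members between detrusor and stroma (27.1% of all genes), 9 between urothelium and stroma (23.1%) and 9 between urothelium and detrusor (39.3%). Against stroma, all 4 in detrusor were lower (15.3% of all genes) and 8 of the 9 in urothelium (13.3%), the exception being Cxcl15. Cxcl15 had passed the filter through its urothelium arrays, and Cxcr3, among the lower ones, needed its stroma arrays to pass. Of the 9 between urothelium and detrusor, Ccl11 and Ccl12 needed their detrusor arrays to pass, and Ccl25 and Cxcl15 their urothelium arrays. The median difference of the members was -0.50 for detrusor against stroma and -0.56 for urothelium against stroma, beside -0.16 and -0.12 for all genes, and -0.07 for urothelium against detrusor, beside -0.01. Both comparisons with stroma share the stroma arrays. Centring each array on its median moved the median of all genes to 0.25 and 0.31, and the number of members below 0 from 17 to 13 in detrusor and from 18 to 13 in urothelium.

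**Figure D4:**
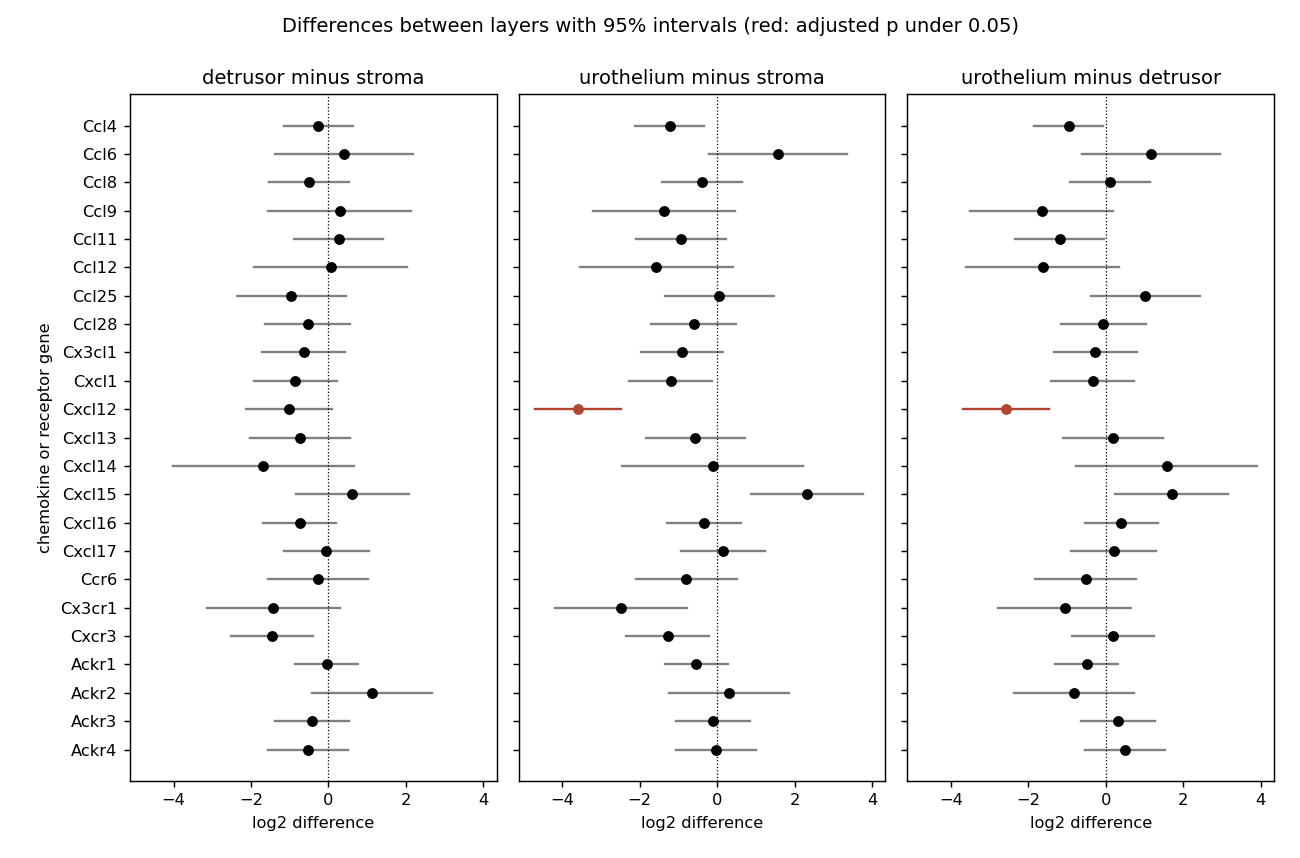
Log2 difference with its 95% interval for each of the 23 tested members in the 3 comparisons of layers. Only Cxcl12 was called, in both comparisons with urothelium, and most estimates against stroma lie below 0.

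The members also varied within the stroma, where stroma 2 stood apart, a pattern picked after the values had been seen. Stroma 2 was the lowest of the 3 stroma arrays for 14 of the 23 members, beside 37.7% of all genes, and for 7 of the 8 CC ligands, the exception being Ccl25. It was the highest for 4 members, Ackr1, Cx3cl1, Cxcl1 and Cxcl12, beside 31.5% of all genes. Among the 27 members that did not pass, stroma 2 was the lowest of the 3 for 18 and the highest for 5 (Ccl17, Ccr10, Cxcl11, Cxcl9 and Cxcr2). The shares given above are of the tested genes, and no such share was computed for genes that did not pass. Of the 18, Ccl2 read 252, 37.3 and 228 units in stroma 1, 2 and 3, and Ccl7, like Ccl2 a monocyte attractant, read 282, 24.9 and 281. Ccl24, an eosinophil attractant, read 455, 24.9 and 189. Ccr1, a receptor of CC ligands on myeloid cells, read 954, 72.3 and 290. Ccl17, a ligand of Ccr4 on T cells, ran the other way with 237, 2164 and 148 in stroma and no more than 186 elsewhere.

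**Figure D5:**
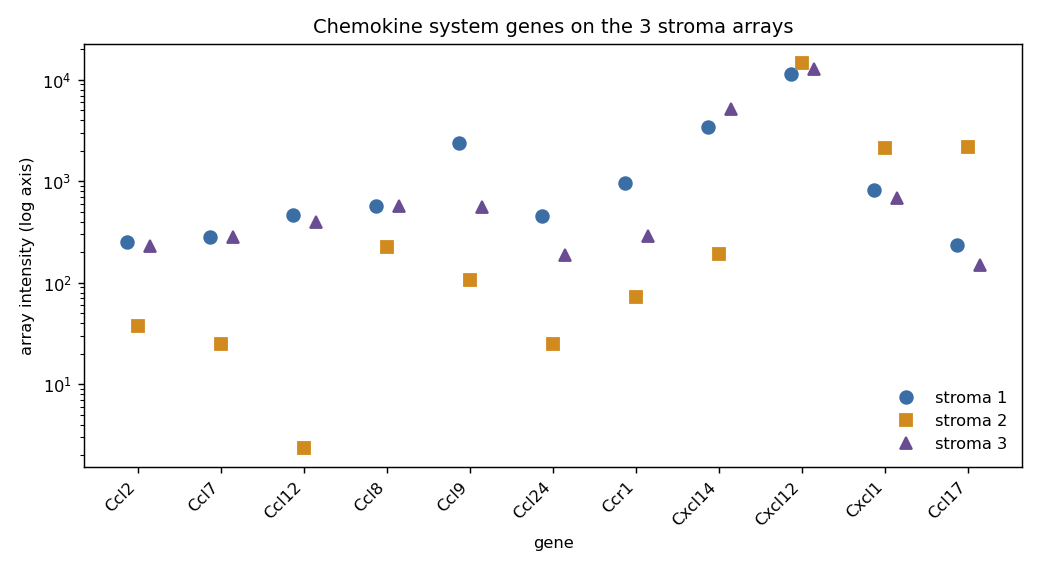
Intensity of 11 chemokine and receptor genes in stroma 1, 2 and 3, on a log axis, each point being 1 array; levels are to be compared within a gene only. Stroma 2 is the lowest array for the genes from Ccl2 to Cxcl14 and the highest for Cxcl12, Cxcl1 and Ccl17.

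Markers of several cell types were low in stroma 2 as well. It was the lowest stroma array for all 12 macrophage markers, all 8 smooth muscle markers, all 3 markers of leukocytes in general, 6 of 8 urothelial, 5 of 7 endothelial and 5 of 8 fibroblast markers. Of all tested genes, 37.7% were lowest there. Urothelial markers summed to 35283, 14690 and 160718 units in stroma 1, 2 and 3, so for these stroma 3 was the array that stood apart. Smooth muscle markers summed to 158749, 49378 and 135802 units in stroma 1, 2 and 3. Macrophage markers summed to 82713, 11236 and 42629 units in stroma 1, 2 and 3. The macrophage sums were between 10496 and 19826 in detrusor and between 8470 and 10174 in urothelium, and no marker was at 0. Of the 11 macrophage markers tested, limma called 0 in any comparison of layers. Of all genes it called 5.84% between detrusor and stroma, 0.23% between urothelium and stroma and 16.4% between urothelium and detrusor. For urothelium against stroma 8 of the 11 were at unadjusted p under 0.05, beside 19% of all genes. Csf1r was at -2.63 ± 0.55 there, with an adjusted p of 0.0571. Lymphocyte markers were dim everywhere, with 0 of 7 passing the filter, and neutrophil markers summed to between 416 and 878 in urothelium and between 1340 and 3634 in the other layers. Pf4, a platelet and macrophage chemokine outside the naming rule, read 51143, 4628 and 21376 in stroma, and its difference for urothelium against stroma was -2.52 ± 0.74 (adjusted p = 0.104). The part of these cells in the members' values was not tested.

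The 27 members that did not pass were 15 ligands and 12 signalling receptors. Fitted without the filter over all genes, limma called 0 of the 27 in any comparison, where it called 3.39% of all genes between detrusor and stroma, 0.055% between urothelium and stroma, 10.5% between urothelium and detrusor and 0.011% between the days. At unadjusted p under 0.05 there were 2 between detrusor and stroma (Ccl17 and Cxcr2), 3 between urothelium and stroma (Ccl17, Ccr1 and Cxcr6), 0 between urothelium and detrusor and 1 between the days (Ccr10). Cxcl9, Cxcl10 and Cxcl11, the interferon-induced ligands of Cxcr3, were among the 27, with a median over the arrays of 61.5, 23.6 and 120 units. Ccl5, a T cell product, stayed between 11.3 and 37.9 units, and Cxcl5, a neutrophil attractant of epithelia, between 2.05 and 54.5. Of the 82 probe sets tested one by one, 1 was called in each comparison with urothelium (beside 0.04% of all probe sets against stroma and 5.21% against detrusor), both times the brightest of Cxcl12.

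Genes that act with chemokines but fall outside the rule were taken from a list of 45, of which 34 were tested. Between urothelium and detrusor limma called 2 higher and 2 lower, beside 8.37% and 8.05% of all genes. The syndecans Sdc1 and Sdc4, proteoglycans that hold chemokines at the cell surface, rose by 2.95 ± 0.58 (adjusted p = 0.00615) and 2.44 ± 0.35 (adjusted p = 0.00179). Sdc3, another syndecan, fell by 1.31 ± 0.39 (adjusted p = 0.0446), and Gnai1, an inhibitory G protein subunit used by chemokine receptors, fell by 2.17 ± 0.30 (adjusted p = 0.00156). Between detrusor and stroma, where 3.12% of all genes were called higher and 2.72% lower, 1 was higher, Gnai1 (1.69 ± 0.30, adjusted p = 0.0137), and 2 were lower, Sdc4 (-1.44 ± 0.35, adjusted p = 0.0397) and Mmp2 (-1.37 ± 0.30, adjusted p = 0.0282), a protease that can cleave Cxcl12. Between urothelium and stroma 0 of the 34 were called (12 at unadjusted p under 0.05), beside 0.23% of all genes (19% unadjusted). The smallest adjusted p there was that of Mmp2 (-1.70 ± 0.30, adjusted p = 0.0537). The median difference of the list was -0.47 for detrusor against stroma, -0.64 for urothelium against stroma and -0.30 for urothelium against detrusor. For all genes these medians were -0.16, -0.12 and -0.01.

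A list of 24 genes of the NF-kB, cytokine and interferon programmes that induce many chemokines had 15 tested genes. Between detrusor and stroma 1 was called higher, beside 3.12% of all genes: Ifit1, an interferon-induced gene (2.75 ± 0.59, adjusted p = 0.0246). Between urothelium and detrusor 2 were called lower, beside 8.05% of all genes. They were the NF-kB subunit Relb (-2.20 ± 0.61, adjusted p = 0.0329) and the interferon-induced GTPase Gbp2 (-3.04 ± 0.73, adjusted p = 0.0171). Between urothelium and stroma limma called 0 of the 15 (2 at unadjusted p under 0.05), with Ifit3 at -1.79 ± 0.55 (adjusted p = 0.118). There 0.23% of all genes were called and 19% lay under the unadjusted level. The medians of the list were -0.40, -0.04 and -0.38 in the same order, beside -0.16, -0.01 and -0.12 for all genes.

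The 4 arrays of postnatal day 1 and the 5 of day 2 were compared with layer as a covariate. Limma called 0 of the 23 members, 0 also at unadjusted p under 0.05, where 0.0153% of all genes were called and 5.56% lay under the unadjusted level. Of the members 10 were above 0 and 13 below, with a median of -0.04 beside 0.03 for all genes. Cxcl12 differed by 0.52 ± 0.42 (adjusted p = 0.909). The largest differences were those of Ccl9 (-1.03 ± 0.68, adjusted p = 0.890) and Ccl6 (-1.03 ± 0.65, adjusted p = 0.886).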

How the data were processed

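RNA of laser-captured detrusor, stroma and urothelium, 3 arrays each, was measured on MOE430 arrays. The deposited values are linear intensities that the authors made with GCOS, per the submitters' processing notes; its version and algorithm were not given in the sources used here. On every array the mean without the lowest and highest 2% was 1500 units, so arrays had been scaled to 1 level. Of 45101 probe sets 64 were controls, 34945 had 1 symbol, 932 several (1 of them a chemokine set, not named) and 9160 were not named.

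The pseudocount was the 20th percentile of all values. Layers were compared with limma 3.58.1 (R 4.3.3; lmFit, eBayes with trend) in 1 fit over 9 arrays, and p-values were adjusted by Benjamini-Hochberg over 13064 genes (called under 0.05). The number of arrays limits the precision. Per-array values are given for members called in a comparison, for those whose arrays do not overlap at a difference of at least 1, and for Cxcl12, Ackr3 and Cxcr4; from the rest, the 3 largest differences each way. Cxcl14, Ccl6, Cxcl16 and others in the text beyond these, and the dim members of the stroma paragraph, were chosen after their values were seen. Members and lists were chosen with earlier results of these data known. The fit was tested on simulated data. Alternatives covered normalization, pseudocount, filter, probe set rule, day, array weights and arrays left out. Promoters are RefSeq's (GRCm38.p6).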

Additional observations from a re-analysis of the deposited data

How the results depend on the processing

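No paired analysis was possible because the labels give no replicate numbers, and those used here follow accession order. For Cxcl12, urothelium against stroma was called under 14 of 19 alternatives: array weights gave -3.06 (adjusted p = 0.053), and among the single arrays left out the difference lay between -4.13 and -2.95 with adjusted p from 0.0141 to 0.102. Leaving out a detrusor array does not change that difference, only the shared spread. Urothelium against detrusor was called under 18 of 19, the exception being the mean of probe sets (-1.70), with -3.12 to -1.94 over the arrays left out. Detrusor against stroma stayed between -1.22 and -0.59 and was called under 0 of 19 (adjusted p 0.104 to 0.543). The number of members called was 0 to 1 for detrusor against stroma over the arrays left out. For urothelium against stroma it was 0 with array weights and 0 to 1 over the arrays left out. For urothelium against detrusor it was 0 with the mean of probe sets, 3 with array weights (Ccl12, Ccl9 and Cxcl12) and 1 to 2 over the arrays left out. Small differences were not stable in sign: of the 23 members, 10 changed sign under at least 1 alternative for detrusor against stroma, 8 for urothelium against stroma and 7 for urothelium against detrusor, none of them larger than 0.62, 0.38 and 0.41 in size with all arrays. Calls over all genes ranged from 105 to 851 around 763 for detrusor against stroma, 0 to 528 around 30 for urothelium against stroma, 1172 to 3785 around 2145 for urothelium against detrusor and 2 to 5 around 2 for day. The cause of these changes was not tested. With no background values, dim members (27 of 50) carry no limit of detection.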
